A study of Mus musculus with 4 samples.

Results

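The genes described here encode the Polycomb repressive complexes PRC1 and PRC2, the trithorax-type MLL complexes, histone demethylases, the SWI/SNF (BAF) and CHD chromatin remodellers, histone deacetylases and 2 histone acetyltransferases. They are 58 named genes, taken by gene symbol from 32564 genes with transcripts in the files, and all 58 were found. They were measured by RNA sequencing in 4 libraries of 1 group of adult mouse neural stem cells. The labels give untreated cells of 3-month-old gfap:GFP animals on a mixed CD1 and C57BL/6 background, in which a Gfap-driven reporter marks astrocytes and stem cells, and name the sorted fraction as activated, with GFAP, Prom1 and EGFR on the cells. The design text of the series describes something else, quiescent cells collected 3 days after aCSF or miR204 antagomers were delivered into the ventricle. No sample label names these treatments, so no groups were compared, and if the design text applied, an SD given here may include the effect of a treatment. Whether the libraries are from different animals is not stated in the labels, so SDs and p-values measure the spread between these samples, which may be technical.

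Polycomb proteins keep developmental genes silent. PRC2 methylates histone H3, and PRC1, a ubiquitin ligase for histone H2A, compacts chromatin that carries that mark. MLL complexes place the opposing activating methylation, demethylases remove either mark, and remodellers move nucleosomes with the energy of ATP. During development, neural progenitors that become neurons exchange several subunits of the BAF complex for paralogs. In adult neural stem cells, Ezh2, Bmi1, Kmt2a, Chd7 and several deacetylases are known from knockout studies to affect self-renewal or the production of neurons.

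The libraries held 16978938 to 23727664 estimated counts. The sort genes were present in all of them: Egfr at 71.6 to 122 TPM (transcripts per fixed total, corrected for length), Prom1 at 14.6 to 31.7 TPM and Gfap at 107 to 227 TPM. All 7 neural stem markers examined were called above 1 TPM, with sums of 2172 to 2914 TPM. So were all 6 neuroblast, all 6 oligodendrocyte, all 6 microglia and all 6 ependymal markers and 7 of 8 mature neuron markers. All 6 proliferation markers were called too, with sums of 599 to 753 TPM. The same call covered 71.6% of all protein-coding genes tested. Oligodendrocyte markers summed to 727 TPM in library 1 and to 1767 to 2305 TPM in the other 3, microglia markers to 96.6 TPM in library 1 and 245 to 334 TPM in the others, and ependymal markers to 599 TPM in library 1 and 791 to 1204 TPM in the others. No defining marker of these lists was listed at 0 in any library. Most genes described here are expressed in many cell types, and the part of other cells in their levels was not tested. In such bulk samples fewer cells of a type and less RNA per cell cannot be told apart.

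Nearly the whole set was expressed. Of the 58 genes, 57 were called above 1 TPM (limma on log2(TPM + 1), adjusted p under 0.05), where the background was 62.8% of all genes tested and 71.6% of protein-coding genes. The exception was Kmt2b, whose call depended on the setting. Above 10 TPM, 43 of the 58 (74.1%) were called, beside 40.5% of all genes tested and 46.5% of protein-coding genes. Below 10 TPM were Kmt2b, Kmt2d, Kdm6b and Dpf3, and the other 11 passed in neither direction. The calls of Kmt2d (adjusted p = 0.109, limma), Kdm6b (0.211) and Dpf3 (0.222) were lost when TPM was rescaled over nuclear coding genes, and that of Dpf3 also with edgeR (0.0645) and without library 2 (0.0764). Kdm6b also lost its call without library 1 (0.0914) or library 3 (0.0986), and on CPM (counts scaled to depth but not to length) Kmt2d and Kdm6b lay above a level of 10 (log2 difference 2.69 and 0.58). The median of mean TPM was 31.1 over the set, 12.5 over protein-coding genes and 8.34 over all genes tested. The deacetylases (median 79.1 TPM, 6 of 6 above 10 TPM) and the SWI/SNF subunits (median 59.9 TPM, 15 of 17 above 10 TPM) were the highest groups. The MLL group had a median of 29.8 TPM (4 of 7 above 10 TPM), PRC2 core subunits 29.2 TPM (4 of 4), PRC1 24.5 TPM (7 of 10), PRC2 accessory subunits 17.8 TPM (2 of 3), demethylases 13.7 TPM (2 of 5) and acetyltransferases 12.9 TPM (0 of 2). The 4 CHD genes had a median of 39.7 TPM (3 of 4).

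**Figure D1:**
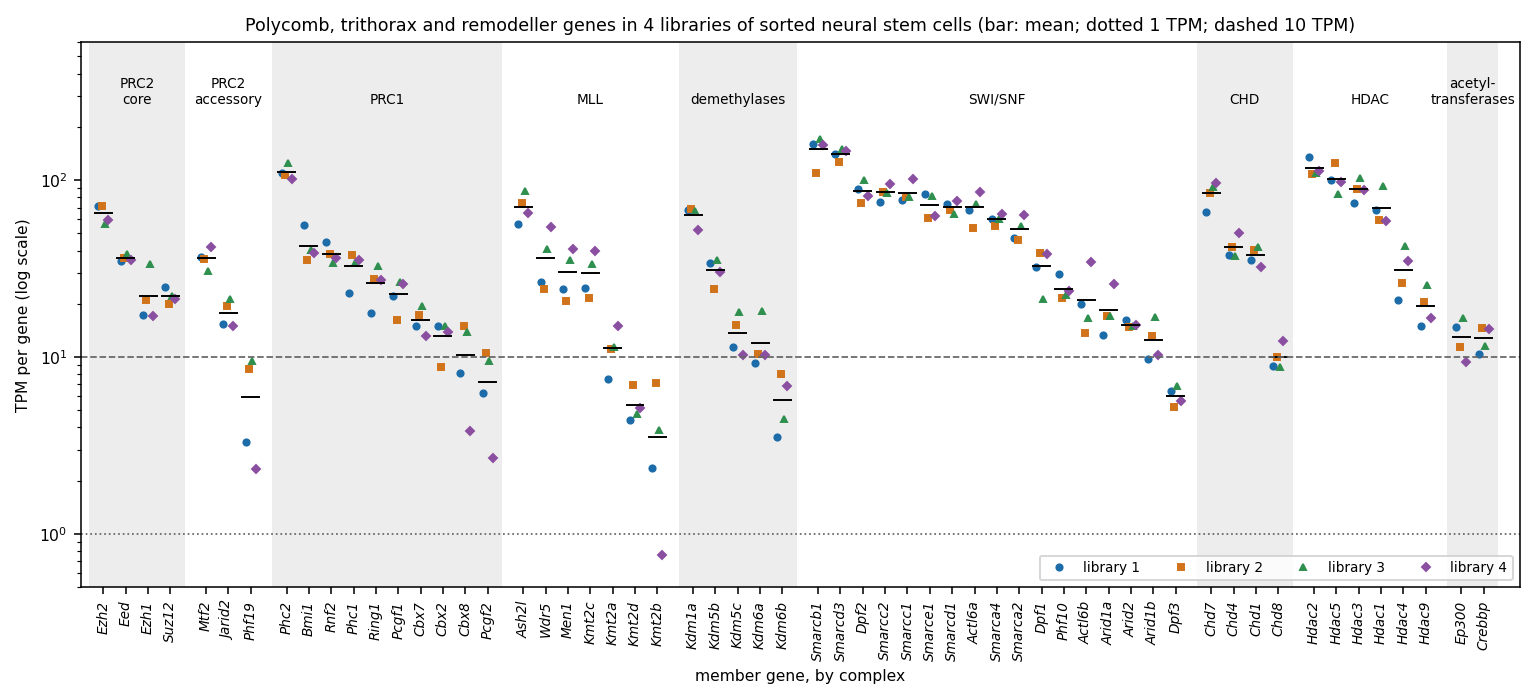
TPM of each of the 58 genes (x axis, grouped by complex and ordered by mean) in each of the 4 libraries (symbols) on a log y axis, with the mean as a bar and lines at 1 and 10 TPM. SWI/SNF and HDAC genes sit highest, and the Kmt2b point of library 4, at 0.764 TPM, is the only point under 1 TPM.

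All 4 core genes of PRC2 were expressed, and the catalytic subunit Ezh2 was higher than its paralog Ezh1 in every library. Ezh2, the methyltransferase typical of dividing cells, was at 71.7, 71.6, 56.5 and 59.9 TPM in libraries 1 to 4 (64.9 ± 7.91 TPM, SD, n = 4). Ezh1, the paralog that predominates in many resting tissues, was at 17.4, 21.01, 33.6 and 17.1 TPM (22.3 ± 7.76 TPM, n = 4). Library 3 had the lowest Ezh2 and the highest Ezh1, and the ranges did not overlap. The log2 ratio within libraries was 1.55 ± 0.56 (2.92-fold, higher in 4 of 4 libraries). It was smaller with the most abundant transcript of each gene (0.67) and with CPM (0.70). With 4 libraries the exact two-sided sign-flip permutation test cannot go below p = 0.13, which it gave here and for each of the 26 of 32 gene pairs with the same direction in every library. No pair can therefore pass 0.05, and sizes, SDs and the number of libraries are what can be read. Eed, which binds the methylated histone tail, was at 34.8 to 38.5 TPM and Suz12, the scaffold, at 19.9 to 24.9 TPM. The log2 ratio of Eed to Suz12 was 0.69 ± 0.16 (1.62-fold, 4 of 4 libraries). Reads per gene without length correction gave -0.39, with leading transcripts of 2067 bases for Eed and 4373 bases for Suz12.

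Among the accessory subunits of PRC2, Mtf2, a Polycomb-like protein that brings PRC2 to CpG islands, was listed at 36.7, 35.95, 30.7 and 41.8 TPM. Its relative Phf19 was at 3.30, 8.60, 9.54 and 2.33 TPM, low in libraries 1 and 4 and higher in libraries 2 and 3. On summed TPM, Mtf2 was 6.01-fold higher than Phf19 in the log2(TPM + 1) ratio, in 4 of 4 libraries. However, only 9.39% of Mtf2's TPM lay in complete coding transcripts, here the protein-coding transcripts in GENCODE's basic set. That class also holds models much shorter than others of their gene, such as Chd7-206 (3462 bases) beside Chd7-202 (10216 bases). The Mtf2 transcript with most of the gene's TPM (44.0%) was a partial coding model of 718 bases. Complete coding transcripts of Mtf2 had 3.41 ± 0.84 TPM, and the log2 ratio of Phf19 to Mtf2 was 0.15 in place of -2.59, with Phf19 higher in 2 of 4 libraries. Jarid2, a DNA-binding cofactor of PRC2, was at 14.95 to 21.3 TPM.

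Among the 10 PRC1 genes of the set, Phc2, a polyhomeotic subunit that polymerizes and clusters PRC1, was the highest at 109, 106, 126 and 101.4 TPM (111 ± 10.4 TPM, n = 4). Its paralog Phc1 was at 23.0 to 37.96 TPM, so the ranges did not overlap, and Phc2 was 3.38-fold higher (log2 ratio 1.76 ± 0.35). Of the PCGF subunits, which set the type of PRC1, Bmi1 was at 56.0, 35.3, 40.1 and 38.8 TPM, Pcgf1 at 16.2 to 26.5 TPM and Pcgf2 at 6.30, 10.5, 9.51 and 2.68 TPM. Bmi1, known as a factor of stem cell self-renewal, was 5.68-fold higher than Pcgf2 (log2 ratio 2.51 ± 0.83) and 1.84-fold higher than Pcgf1 (0.88 ± 0.36 in that direction), each in 4 of 4 libraries. The ubiquitin ligases Rnf2 (34.0 to 44.5 TPM) and Ring1 (17.8 to 32.6 TPM) did not overlap, and Rnf2 was 1.46-fold higher.

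The 3 CBX genes of the set, whose proteins read the Polycomb mark, were among its lowest PRC1 genes. Cbx7 was at 13.2 to 19.3 TPM and Cbx2 at 8.77 to 14.98 TPM. Their order differed between libraries: Cbx7 was higher than Cbx2 in 3 of 4 libraries, with a log2 ratio of 0.30 ± 0.44 (exact permutation p = 0.375). Cbx8 was at 8.17, 14.9, 13.9 and 3.83 TPM, lowest in library 4. It was higher than Cbx2 in 1 of 4 libraries (exact permutation p = 0.375) and lower than Cbx7 in all 4 (1.68-fold). Complete coding transcripts held 31.8% of the Cbx8 TPM (3.25 TPM), and on them Cbx8 was below Cbx2 in 4 of 4 libraries (log2 ratio -1.67), the log2 ratio of Cbx7 to Cbx8 was 1.90 in place of 0.75, and Cbx8 was called below 10 TPM (limma, adjusted p = 0.00482). On summed TPM, only Cbx7 of these 3 was called above 10 TPM (limma, adjusted p = 0.00576). Cbx2 also passed when library 2 was left out.

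The shared subunits of MLL complexes were the highest genes of their group and the large methyltransferases the lowest on complete coding transcripts. Ash2l, a core subunit, was at 56.7, 74.4, 87.1 and 65.3 TPM. Wdr5, the adaptor of the core, was at 26.5, 24.2, 40.6 and 54.3 TPM, higher in libraries 3 and 4 than in 1 and 2. Men1, the menin subunit of the Kmt2a and Kmt2b complexes, was at 24.3, 20.6, 35.4 and 40.8 TPM and had the same order of libraries.

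Of the methyltransferases, Kmt2a was at 7.48, 11.1, 11.4 and 15.02 TPM, in neither direction from 10 TPM. Kmt2b was at 2.36, 7.17, 3.88 and 0.764 TPM (3.54 ± 2.73 TPM, n = 4), the lowest mean of the 58 genes. It was called below 10 TPM, and its difference from 1 TPM had an adjusted p of 0.0556 (limma), which became 0.0115 when library 4 was left out. It was also called above 1 TPM with edgeR (adjusted p = 0.000222), with CPM (0.000934), with a minimum of 5 counts on average (0.0184) and after rescaling (0.0308). Kmt2a was higher than Kmt2b in 4 of 4 libraries (log2 ratio 1.61 ± 1.11, 3.04-fold). Complete coding transcripts held 35.2% of the Kmt2a TPM and 47.8% of that of Kmt2b. On them the log2 ratio was 0.92 (4 of 4 libraries), and Kmt2a was called below 10 TPM (limma, adjusted p = 0.00248). Kmt2c and Kmt2d, which mark enhancers, were at 21.6 to 39.9 TPM and at 4.40 to 6.96 TPM, a 4.79-fold ratio in favour of Kmt2c on summed TPM. That ratio turned with complete coding transcripts only. These held 99.3% of Kmt2d's TPM and 11.7% of that of Kmt2c, whose leading model, Kmt2c-206, is a partial transcript of 2646 bases. On them Kmt2c had 3.50 TPM and Kmt2d 5.29 TPM, and the log2 ratio of Kmt2c to Kmt2d was -0.48, with Kmt2c higher in 1 of 4 libraries. The median of the group against that of coding genes turned in the same way, from 1.17 ± 0.39 to -0.64 on the log2 scale.

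Of the demethylases, Kdm1a, which removes methyl groups from the lysine that MLL complexes methylate, was the highest at 67.4, 68.7, 66.8 and 52.6 TPM (63.9 ± 7.55 TPM, n = 4), lowest in library 4. Kdm5b (24.3 to 35.5 TPM) and Kdm5c (10.3 to 17.9 TPM), which act on the same lysine, did not overlap, and Kdm5b was 2.21-fold higher (log2 ratio 1.14 ± 0.41, 4 of 4 libraries). The demethylases of the Polycomb mark were lower. Kdm6a was at 9.29, 10.4, 18.2 and 10.2 TPM, with library 3 apart from the others. Kdm6b was at 3.53, 8.02, 4.49 and 6.90 TPM and was called below 10 TPM (limma, adjusted p = 0.029), a call lost without library 1 or without library 3. The log2 ratio of Kdm6a to Kdm6b was 0.96 ± 0.67 (1.94-fold, 4 of 4 libraries).

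Among the SWI/SNF subunits common to BAF complexes, Smarcb1, a core subunit and tumour suppressor, was at 161, 110, 171 and 159 TPM (150.0 ± 27.3 TPM, n = 4), the highest mean of the 58 genes, with library 2 the lowest. The ATPases Smarca4 (59.9 ± 3.91 TPM) and Smarca2 (52.9 ± 8.30 TPM) had overlapping ranges, 55.1 to 64.6 TPM and 45.9 to 63.8 TPM. Smarca4, the ATPase that neural stem cells need for their maintenance, was higher than Smarca2 in 4 of 4 libraries, but by 1.14-fold only (log2 ratio 0.19 ± 0.14). In complete coding transcripts, which held 94.5% of Smarca4's TPM and 44.6% of Smarca2's, the log2 ratio was 1.25. The scaffold subunits Smarcc1 (84.9 ± 11.4 TPM) and Smarcc2 (85.3 ± 8.19 TPM) had a log2 ratio on summed TPM near 0 (-0.01 ± 0.09, higher Smarcc1 in 2 of 4 libraries, exact permutation p = 0.875). On complete coding transcripts the ratio was -1.25, with Smarcc2 higher in 4 of 4 libraries. The leading Smarcc1 transcript was annotated as a retained intron (45.7% of its TPM), while all of the TPM of Smarcc2 was in complete coding models.

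Smarce1 was at 61.0 to 84.0 TPM. The large ARID subunits, which define the BAF and PBAF assemblies, were lower. Arid1a was at 13.3, 17.1, 17.2 and 25.7 TPM, Arid1b at 9.74 to 16.8 TPM and Arid2 at 14.7 to 16.2 TPM. Arid2 had the smallest spread of the 58 genes, with an SD of 0.06 on the log2(TPM + 1) scale. Arid1a was higher than Arid1b in 4 of 4 libraries (1.42-fold), but in library 3 by 0.03 on the log2 scale.

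Progenitor and neuronal BAF subunits were both expressed. The progenitor subunit was the higher at the ACTL6 position, and the PHF10 and DPF genes were divided. The lists compared also held Smarcd1 with the progenitor genes and Smarcd3 with the neuronal genes, an assignment that is not established, since Smarcd3 is also known from neural progenitors. On TPM, Smarcd3 was the higher of this pair. With the pair, the progenitor median was above the neuronal median by 1.43 ± 0.30 on the log2 scale. Leaving the pair out was chosen after seeing the data. Without it, all 3 progenitor genes and 2 of 3 neuronal genes were called above 10 TPM. The difference of medians was then 1.71, 1.90, 2.09 and 1.22 in libraries 1 to 4 (1.73 ± 0.37). With 3 genes on each side a median is the middle gene, which was Actl6a and Actl6b in libraries 1 to 3. Those values are therefore the Actl6a to Actl6b ratios given next, not a separate result.

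At the actin-related position, Actl6a, the progenitor subunit, was at 67.7, 53.7, 73.5 and 86.1 TPM (70.3 ± 13.5 TPM, n = 4). Actl6b, the neuronal subunit, was at 19.96, 13.6, 16.5 and 34.4 TPM (21.1 ± 9.23 TPM, n = 4), highest in library 4, where Actl6a was highest too. The ranges did not overlap. The log2 ratio was 1.71, 1.90, 2.09 and 1.30 in libraries 1 to 4 (1.75 ± 0.34, 3.37-fold), and 1.71 in complete coding transcripts. Actl6b was above 10 TPM (limma, adjusted p = 0.00822). In libraries 1 to 4 the mature neuron markers summed to 1340, 1090, 1086 and 1116 TPM and neuroblast markers to 409, 282, 275 and 219 TPM. The part of neuronal RNA in the Actl6b level was not tested. Of the exon bases of Actl6a, 11.6% overlap Mrpl47 on the other strand (17.7 TPM), and strand was not stated.

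Smarcd3 and Smarcd1 are alternative subunits at the SMARCD position. Smarcd3 was at 140, 127, 150 and 146 TPM (141 ± 10.2 TPM, n = 4) and Smarcd1 at 73.5, 67.6, 64.2 and 76.5 TPM (70.5 ± 5.58 TPM, n = 4). No library overlapped, and Smarcd3 was 1.98-fold higher (log2 ratio of Smarcd1 to Smarcd3 -0.99 ± 0.15). Reads per gene without length correction gave 0.058, so the order depends on the length correction (leading transcripts of 1712 bases for Smarcd3 and 3153 bases for Smarcd1). Of the Smarcd3 exon bases, 48.2% overlap Chpf2 on the other strand, which had 11.4 TPM. Of those of Smarcd1, 12.7% overlap other genes, with 7.1% in Gm17349 on the other strand (7.3 TPM).

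At the PHF10 and DPF position, Dpf2, found in progenitor complexes, was at 89.1, 74.5, 100.4 and 81.7 TPM, the progenitor subunit Phf10 at 29.7, 21.5, 22.3 and 23.5 TPM, and the neuronal subunits Dpf1 at 32.3, 38.7, 21.4 and 38.2 TPM and Dpf3 at 6.43, 5.21, 6.83 and 5.66 TPM. Dpf2 was above each of the other 3 in every library, 2.65-fold against Dpf1 and 12.4-fold against Dpf3. On summed TPM, the Dpf2 to Dpf3 ratio was the steadiest of the 32 pairs (log2 ratio 3.63 ± 0.04). Complete coding transcripts held 46.9% of the Dpf2 TPM and 41.6% of that of Dpf3. On them Dpf2 was at 48.17, 40.75, 44.41 and 28.91 TPM and Dpf3 at 1.502, 2.62, 2.469 and 3.445 TPM. There the mean log2 ratio was 3.57, but it was less steady, largest in library 1 and smallest in library 4. Phf10 and Dpf1 overlapped, and Phf10 was higher in 1 of 4 libraries (log2 ratio -0.39 ± 0.42, exact permutation p = 0.25). On complete coding transcripts Dpf1 was above Phf10 in 4 of 4 libraries (log2 ratio -0.593), but CPM gave 0.185. The lead of Dpf2 over Dpf1 was smaller on complete coding transcripts (log2 ratio 0.84, 4 of 4 libraries) and protein-coding transcripts (0.412), and larger with CPM (2.067). Models annotated as nonsense-mediated decay held 24.0% of the Phf10 TPM and 35.2% of that of Dpf2. Outside the 58 genes, the pair Ss18 (60.6 ± 12.2 TPM) and its neuronal counterpart Ss18l1 (11.3 ± 2.33 TPM) had the order of the ACTL6 position, with Ss18 5.0-fold higher in 4 of 4 libraries.

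**Figure D2:**
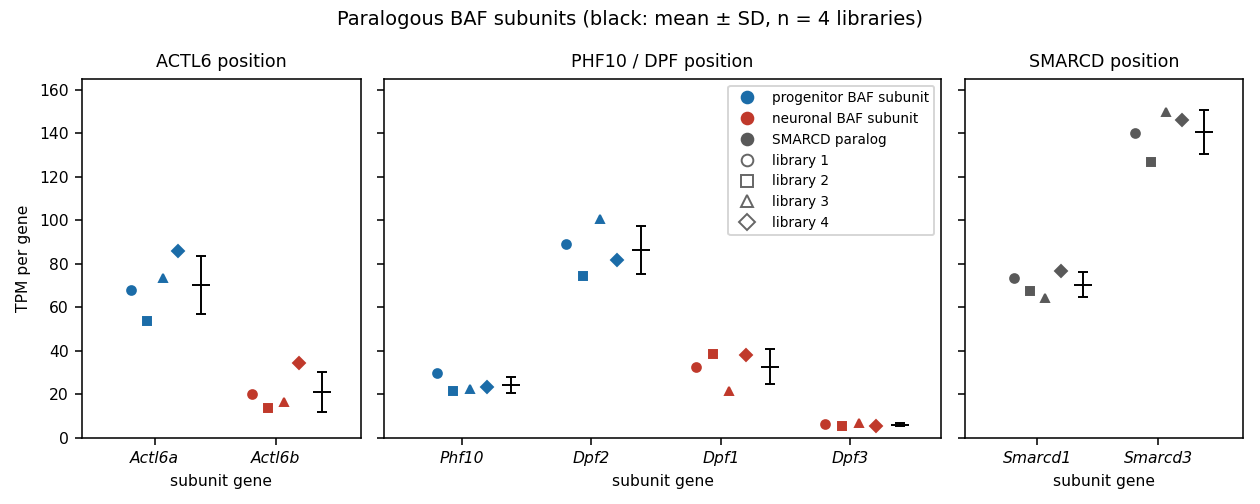
TPM (y axis, linear from 0) of progenitor (blue) and neuronal (red) BAF subunit genes and the SMARCD paralogs (grey) in each of the 4 libraries (symbols), with mean ± SD in black. Actl6a and Dpf2 lie above their neuronal counterparts in every library, and Smarcd3 lies above Smarcd1 in every library.

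In neural development the exchange of Actl6a for Actl6b is known to involve miR-9-3p (miR-9*) and miR-124, which bind the Actl6a 3′ UTR. The miR-9-3p sequence and its match in Actl6a are shown because that match carries this link. Capitals mark bases 2 to 8 of the miRNA, its seed, and in the mRNA (DNA letters) the reverse complement AGCTTTA.
mmu-miR-9-3p: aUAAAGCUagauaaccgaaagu
Actl6a site: tcaacgtctgtAGCTTTAgtacactcagga
The miRNA sequence is from RefSeq (GRCm38.p6). The window lies on the plus strand at chr3:32726629-32726658 (GRCm38) in the 3′ UTR of Actl6a-201, where the match starts 38 bases after the stop codon in a UTR of 371 bases. The letters AGCTTTA, on the mRNA strand, occurred in the 3′ UTR of 6 of 57 genes of the set (10.5%; Actl6a, Smarce1, Bmi1, Smarca2, Arid2 and Mtf2), and of 10.3% of 13137 coding genes of at least 1 TPM. Actl6b had no such match. The leading complete transcript of Ezh2 gave no 3′ UTR to search. miRNAs were not measured in these files, and a match is a description of the letters.

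Of the CHD remodellers, Chd7, the remodeller mutated in CHARGE syndrome and known as a factor of adult neural stem cells, was listed at 66.3, 84.7, 91.0 and 96.3 TPM (84.6 ± 13.1 TPM, n = 4), lowest in library 1. Its paralog Chd8, a gene linked to autism, was at 8.76 to 12.4 TPM, called in neither direction from 10 TPM. The 7.76-fold ratio (log2 2.96 ± 0.21, 4 of 4 libraries) rested largely on Chd7-203, a partial coding model of 2381 bases that took 84.8% of the Chd7 TPM and 62.1% of its counts. In complete coding transcripts Chd7 had 9.60, 10.97, 12.9 and 11.7 TPM, and its log2 ratio to Chd8 was 0.81, with Chd7 still higher in 4 of 4 libraries.

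Chd1, a remodeller of actively transcribed chromatin, was at 32.3 to 41.8 TPM. Of this, 69.3% was in Chd1-203, a processed transcript of 1372 bases, and complete coding transcripts held 6.73 ± 2.75 TPM. Chd4, the ATPase of the NuRD deacetylase complex, was at 37.95, 41.9, 37.4 and 50.3 TPM. The related NuRD ATPases, which are not among the 58 genes, were Chd3 at 45.3 ± 4.09 TPM and Chd5, known from neurons, at 10.1 ± 2.47 TPM. Chd4 was 3.91-fold higher than Chd5 in 4 of 4 libraries. Chd4 and Chd3 could not be ordered: Chd4 was higher in 1 of 4 libraries (log2 ratio -0.12 ± 0.19, exact permutation p = 0.375), and in complete coding transcripts in 4 of 4 (log2 ratio 0.47).

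Hdac2 was the highest deacetylase at 135, 109, 109 and 113 TPM (117 ± 12.3 TPM, n = 4), with library 1 apart from the others. Hdac1, its partner in NuRD, Sin3 and CoREST complexes, was at 67.8, 59.8, 92.1 and 58.6 TPM. Hdac2 was higher than Hdac1 in 4 of 4 libraries (1.69-fold), with the smallest gap in library 3. Hdac3, the catalytic subunit of NCoR complexes, was at 74.5, 89.2, 102.9 and 87.6 TPM, 1.28-fold above Hdac1. Among the class IIa enzymes, signal-dependent repressors that shuttle between nucleus and cytoplasm, Hdac5 was at 100.7, 124, 83.1 and 98.0 TPM and Hdac4 at 21.01, 26.3, 42.4 and 35.1 TPM. Hdac5 was 3.26-fold higher than Hdac4 (4 of 4 libraries), less so in libraries 3 and 4. Hdac9 was at 15.03 to 25.4 TPM, below Hdac4 in 4 of 4 libraries (1.55-fold). In complete coding transcripts that order turned (log2 ratio of Hdac9 to Hdac4 0.43, Hdac9 higher in 3 of 4), since these held 38.3% of the Hdac4 TPM and 84.7% of that of Hdac9. Of the Hdac4 exon bases, 22.4% overlap a gene on the other strand whose level was not listed. The acetyltransferases Ep300 (9.41 to 16.6 TPM) and Crebbp (10.5 to 14.6 TPM) overlapped, with a log2 ratio of 0.01 ± 0.54 and Ep300 higher in 2 of 4 libraries (exact permutation p = 1.0).

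Of the 32 pairs, 26 had the same order in all 4 libraries, and 15 of these differed by 2-fold or more. With complete coding transcripts only, 5 pairs turned: Phf19 and Mtf2, Kmt2c and Kmt2d, Chd4 and Chd3, Hdac9 and Hdac4, and Ep300 and Crebbp.

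**Figure D3:**
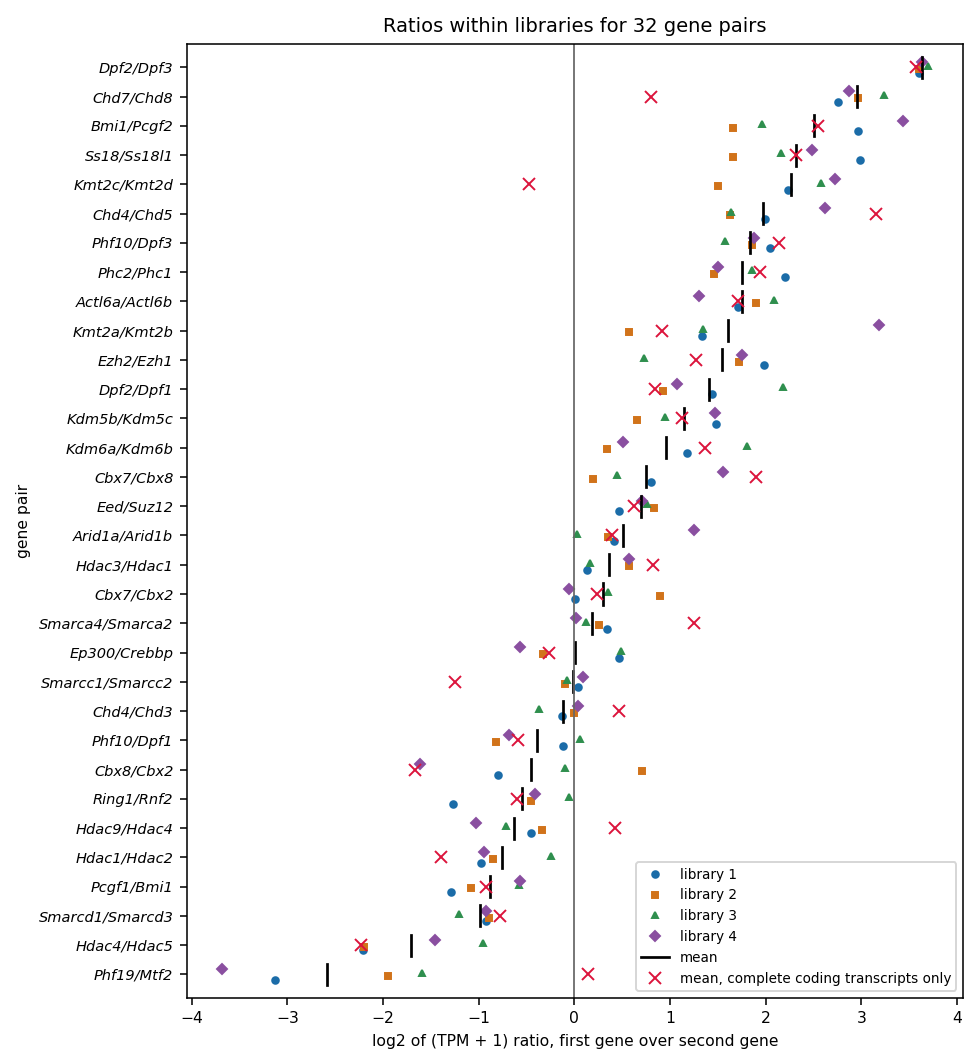
Log2 ratio of (TPM + 1), first gene over second (x axis), for 32 gene pairs (y axis, by mean), with a symbol per library, the mean as a black line and the mean from complete coding transcripts as a red cross. The crosses of Chd7 to Chd8 (0.81 against 2.96) and Kmt2c to Kmt2d (-0.48 against 2.26) lie far from their black lines.

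The leading transcript was a complete coding model in 49 of the 58 genes, a partial coding model in 6, a retained intron in 1 (Smarcc1) and a processed or other transcript in 2 (Chd1 and Cbx8). The median share of TPM in complete coding transcripts was 76.4% over the 58 genes. Among those called above 10 TPM it was 77.3%, beside 90.7% over all coding genes called above 10 TPM. It was under 50% in 8 of the 43 (18.6%) and in 13.3% of those coding genes. Long genes had lower shares in either set: where the longest complete model had 4000 bases or more, the median was 73.2% for the 29 such members and 79.9% for coding genes called above 10 TPM. For shorter ones it was 81.6% and 93.6%. In this split by length all 58 genes were used, whether or not called above 10 TPM, so the 2 sets are not alike in level. In most of the 58 genes, complete models held more of the counts than of the TPM. In Chd7 and Kmt2a, for example, they held 35.2% and 68.8% of the counts, against 13.3% and 35.2% of the TPM. Cbx7, Smarcb1, Phf10 and Hdac9 went the other way. Reads of a gene are divided between its transcripts by estimate, and leaving out a partial model does not return its reads to the complete one, so the values from complete models are too low for genes whose reads fit either.

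**Figure D4:**
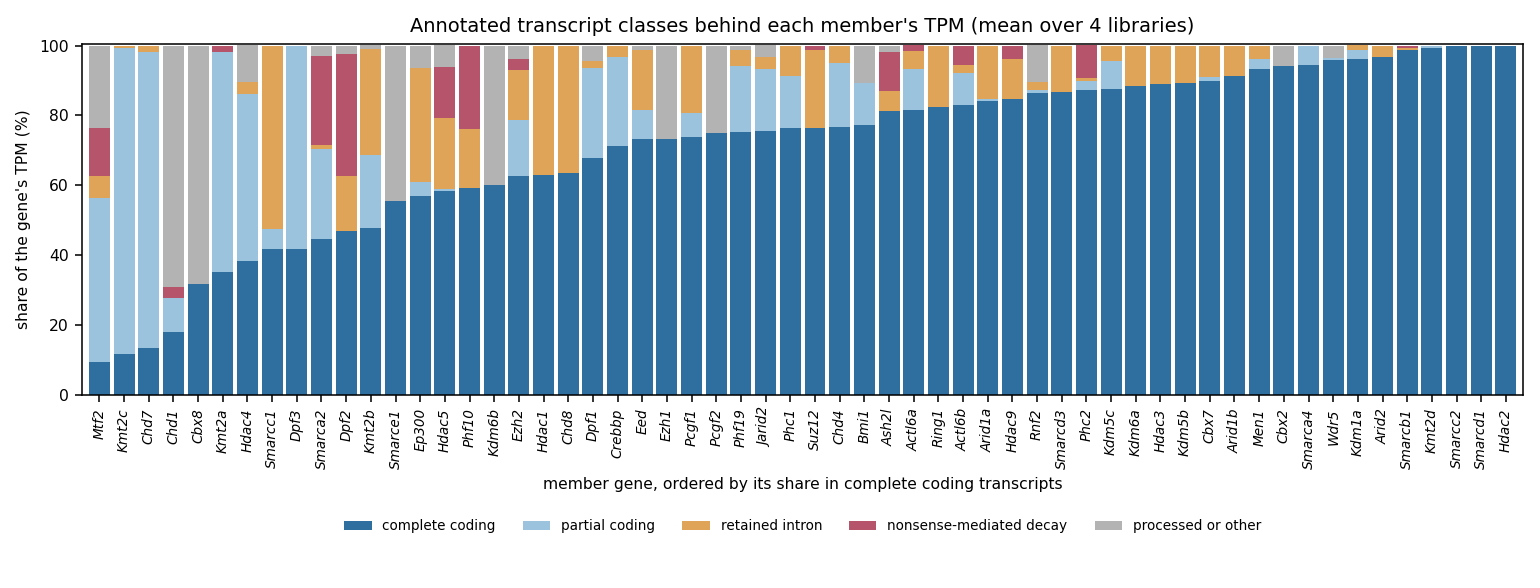
Share of each gene's TPM (y axis, percent, mean over 4 libraries) in 5 annotated transcript classes (colours), for the 58 genes (x axis) ordered by the share in complete coding transcripts. The share runs from 9.39% in Mtf2 to 100% in Smarcc2, Smarcd1 and Hdac2.

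The median SD of log2(TPM + 1) was 0.24 over the 58 genes, 0.25 over all genes with 10 TPM or more and 0.30 over those with 1 TPM or more. The 4 most variable genes were Kmt2b (SD 0.93), Phf19 (0.83), Cbx8 (0.80) and Pcgf2 (0.75), with means of 3.54 to 10.2 TPM. All 4 were lowest in library 4 and second lowest in library 1, and each was highest in library 2 or 3. Library 4 was the most deeply sequenced. The immediate early markers had the same lowest and next lowest library, with sums of 4247, 5158, 7391 and 3121 TPM, and their part in these levels was not tested. Actl6b, Wdr5, Men1 and Kmt2a were instead highest in library 4. Library 3 had the highest value for 24 of the 58 genes and library 2 the lowest for 20.

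**Figure D5:**
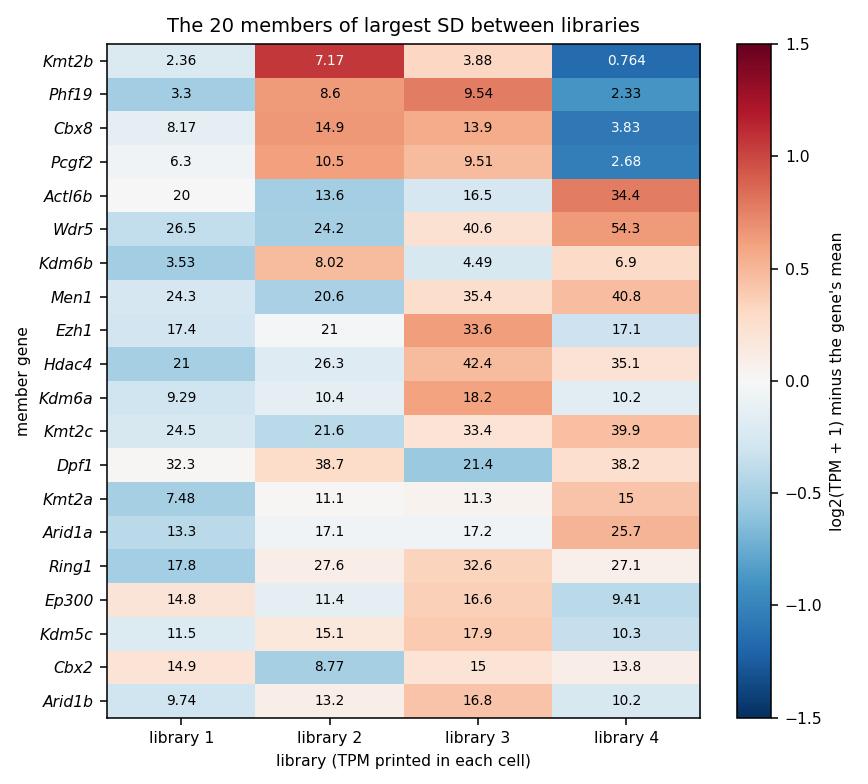
The 20 genes of largest SD (y axis) in the 4 libraries (x axis), coloured by log2(TPM + 1) minus the gene's mean, with TPM printed in each cell. Kmt2b, Phf19, Cbx8 and Pcgf2 are lowest in library 4, at 0.764, 2.33, 3.83 and 2.68 TPM, and Actl6b is highest there, at 34.4 TPM.

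Because the design text names miR204 antagomers, the 3′ UTRs were also searched for the complement of the miR-204-5p seed, AAAGGGA, on the mRNA strand. The miRNA and the sites of Ezh1 and of 3 BAF genes are shown, since Ezh1 and the DPF paralogs are members of the pairs above and Smarcb1 is the highest gene of the set. Capitals mark the seed or its complement.
mmu-miR-204-5p: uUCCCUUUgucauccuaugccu
Ezh1 site: agacagaactcAAAGGGAgacatgtctcca
Smarcb1 site: aagagaaaggcAAAGGGAcagctggtgcca
Dpf2 site: ccctgtcccacAAAGGGAcgagcagcttca
Dpf1 site: acgtggaaaaaAAAGGGAaaa
In GRCm38 these windows lie at chr11:101192508-101192537 (minus strand, Ezh1), chr10:75896958-75896987 (minus, Smarcb1), chr19:5897956-5897985 (minus, Dpf2) and chr7:29316883-29316903 (plus, Dpf1). The miRNA itself lies at chr19:22750610-22750631 (plus). The letters were in 13 of 57 3′ UTRs (22.8%), beside 13.3% of the 13137 coding genes. Median UTR lengths were 1004 and 875 bases, and sites per kilobase were 0.199 and 0.121. Genes with a match also included Smarcc2, Kdm6a, Hdac9, Jarid2, Hdac4, Kmt2d, Pcgf2 and Cbx8. Ezh2 was not searched, since only the most abundant complete coding transcript of each gene was used. No library is labelled as treated with the antagomer, so no effect on these genes was measured.

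Of 77 further genes of the same complexes, 76 (98.7%) were called above 1 TPM, beside 62.8% of all genes tested and 71.6% of protein-coding genes. Above 10 TPM, 58 of the 77 (75.3%) were called, beside 40.5% of all genes tested and 46.5% of protein-coding genes. The median of the 77 was 27.6 TPM, and 3 of them were called below 10 TPM. The histone chaperones Rbbp7 (250.4 ± 22.0 TPM) and Rbbp4 (184 ± 16.1 TPM), which PRC2 shares with NuRD and Sin3, were above all 4 PRC2 core genes. In NuRD, Mbd3 was at 245 ± 14.5 TPM. Cbx6 (126 ± 18.5 TPM) and the PRC1 subunit Yaf2 (95.8 ± 7.21 TPM) were above the CBX genes of the set. Of the MLL group, Dpy30, a core subunit, was at 100.9 ± 13.6 TPM and the methyltransferase Setd1b at 2.78 ± 1.19 TPM, below 10 TPM. The exception at 1 TPM was Ino80, the ATPase of its complex, at 3.90, 2.03, 1.33 and 1.06 TPM.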

How the data were processed

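RNA was measured in 4 libraries of sorted cells. Paired-end HiSeq reads came from cDNA of a low-input SMART-Seq v4 kit, per the labels' protocols. The submitters' processing notes name kallisto, sleuth and mm10. The sources used here give no versions, strand setting or transcript release. The deposited estimated counts (expected counts) per transcript divide shared reads by estimate. The deposited TPM values are counts over effective length, scaled to the same total in every library. Recomputing them gave a largest difference of 0.132 TPM. Errors and p-values come from the spread between libraries; since the labels mention no molecular barcodes, reads may repeat molecules.

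TPM was summed per gene with GENCODE M21 (GRCm38, the assembly named mm10), on transcript identifiers without version. Of 99567 transcripts, 98294 matched. The other 1273 held 2.59 to 4.56% of TPM and were left out.

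For 19914 genes with a count in any library, limma with a trend of variance on mean (two-sided test, threshold 0.05 on Benjamini-Hochberg adjusted p) compared the mean of log2(TPM + 1) with its value at 1 and at 10 TPM. Folds are on the log2(TPM + 1) scale. Ratios of 32 gene pairs within libraries were tested by an exact sign-flip permutation test without adjustment, since none can go below p = 0.125. Group medians, spread and transcript classes were described without a test. The set and lists were chosen with earlier results of these data known. All 58 genes are named. Further genes named come from the 2 highest and the lowest of each further list by mean TPM and from the listed pairs.

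Alternatives were protein-coding transcripts, a pseudocount of 0.1, at least 5 estimated counts on average, the most abundant transcript, CPM without length correction, rescaling over nuclear coding genes, TMM, DESeq2 size factors, group means, edgeR's quasi-likelihood fit on rounded counts with length offsets, and each library left out. The edgeR F statistic was formed from the deviance at the stated level, because the package's own test needs a second coefficient, and was tested on simulated data. Complete coding transcripts, BAF medians without the SMARCD genes, the limits of 50% and 4000 bases, exon overlaps, GC content and the miRNA sites were chosen after seeing the data. For the sites, the 3′ UTR of each gene's most abundant complete coding transcript was searched; 1 site is not reported here. Software was R 4.3.3, limma 3.58.1, edgeR 4.0.16, DESeq2 1.42.0, Python 3.11.15, pandas 2.3.3 and numpy 2.4.6.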

Additional observations from a re-analysis of the deposited data

Results flagged for a closer look

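In 4 genes and 1 gene pair, 1 library stood apart from the other 3 by more than Dixon's critical value for 4 samples, as the gap to the nearest value over the whole range. Kdm1a was lowest in library 4, at 52.59 TPM (gap 0.881 of the range). Kdm6a was highest in library 3, at 18.21 TPM (0.874). Smarcc1 was highest in library 4, at 101.8 TPM (0.872), and Hdac2 highest in library 1, at 134.8 TPM (0.833). The log2 ratio of Smarcd1 to Smarcd3 was lowest in library 3, at -1.21 (0.917). Chance alone flags about 1 in 20 groups, and 58 genes and 32 pairs were examined, so 5 is close to that number.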

How the results depend on the processing

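No paired analysis was possible because the labels give 1 group. The number of the 58 genes called above 1 TPM was 56 to 58 over all alternatives, and the number above 10 TPM ran from 31 (most abundant transcript) to 51 (CPM), with 38 in complete coding transcripts, 48 with edgeR and 50 after rescaling over nuclear coding genes. The share of coding genes above 10 TPM moved too, from 46.5% to 37.6% (most abundant transcript), 54.8% (CPM), 39.7% (complete), 49.1% (edgeR) and 51.8% (rescaled). That rescaling raised the median of all genes by 0.32 to 0.46 on the log2 scale.

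Of the log2 pair ratios, complete coding transcripts turned Phf19 to Mtf2 (0.15), Kmt2c to Kmt2d (-0.48), Chd4 to Chd3 (0.47), Hdac9 to Hdac4 (0.43) and Ep300 to Crebbp (-0.26). CPM turned Eed to Suz12 (-0.39), Smarcd1 to Smarcd3 (0.058), Phf10 to Dpf1 (0.19), Chd4 to Chd3 (0.14) and Ep300 to Crebbp (-0.32). Protein-coding transcripts turned Chd4 to Chd3 (0.45) and Ep300 to Crebbp (-0.58), and the most abundant transcript turned Cbx7 to Cbx2 (-0.11) and Ep300 to Crebbp (-0.18). With each library left out in turn, Smarcc1 to Smarcc2 ran from -0.045 to 0.018 and Ep300 to Crebbp from -0.145 to 0.206. No other pair turned under these settings, a pseudocount of 0.1 or rescaling. Another 40 values, in 20 pairs, kept their direction, but the fold itself, not its log2, changed by over 1.5 times. With the most abundant transcript these were Ezh2 to Ezh1 (0.67), Phf19 to Mtf2 (-1.78), Cbx8 to Cbx2 (-1.31), Phc2 to Phc1 (3.32), Kmt2c to Kmt2d (1.295), Kdm5b to Kdm5c (1.79), Smarca4 to Smarca2 (1.87), Phf10 to Dpf3 (2.475), Ss18 to Ss18l1 (1.38) and Hdac1 to Hdac2 (-1.39). With CPM they were Ezh2 to Ezh1 (0.70), Phf19 to Mtf2 (-1.67), Cbx8 to Cbx2 (-1.57), Cbx7 to Cbx8 (1.73), Bmi1 to Pcgf2 (3.55), Pcgf1 to Bmi1 (-2.695), Kmt2a to Kmt2b (2.40), Kmt2c to Kmt2d (0.565), Dpf2 to Dpf1 (2.07), Chd4 to Chd5 (2.71) and Chd7 to Chd8 (2.18). With protein-coding transcripts they were Phf19 to Mtf2 (-1.83), Cbx8 to Cbx2 (-1.67), Cbx7 to Cbx8 (1.92), Smarcc1 to Smarcc2 (-1.06), Phf10 to Dpf1 (-1.02), Phf10 to Dpf3 (1.11), Dpf2 to Dpf1 (0.41), Dpf2 to Dpf3 (2.545), Chd4 to Chd5 (3.46), Chd7 to Chd8 (3.57) and Hdac1 to Hdac2 (-1.39). With complete coding transcripts they were Cbx8 to Cbx2 (-1.67), Cbx7 to Cbx8 (1.90), Kmt2a to Kmt2b (0.92), Smarca4 to Smarca2 (1.25), Smarcc1 to Smarcc2 (-1.25), Chd4 to Chd5 (3.15), Chd7 to Chd8 (0.805) and Hdac1 to Hdac2 (-1.39).

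Group medians minus the median of coding genes (log2) moved by more than their SD as follows. Restricted to complete coding transcripts they were -0.78 for PRC2 accessory subunits, -0.64 for MLL, -0.084 for acetyltransferases, 0.43 for demethylases, 0.15 for CHD, 1.81 for SWI/SNF and 2.41 for HDAC genes. With the most abundant transcript they were 1.03 for PRC2 core, -0.20 for PRC2 accessory, 0.60 for PRC1, 0.64 for MLL, 1.87 for SWI/SNF, 1.37 for CHD and 2.13 for HDAC genes. With CPM they were 0.68 for PRC2 accessory, 1.66 for MLL, 1.28 for demethylases, 2.16 for CHD, 2.10 for HDAC genes and 1.63 for acetyltransferases. With means they were 1.54 for PRC2 core, 0.66 for MLL, 0.72 for demethylases, 1.93 for SWI/SNF, 2.38 for HDAC genes and 0.25 for acetyltransferases. With protein-coding transcripts they were 1.82 for SWI/SNF, 1.01 for CHD and 2.28 for HDAC genes. Progenitor minus neuronal BAF genes was 1.06 with protein-coding transcripts, 2.09 with CPM, 1.002 with means and 1.73 without the SMARCD genes, an alternative chosen after seeing the data.

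Against 10 TPM (log2 difference), these genes changed side. Restricted to complete coding transcripts, Mtf2 (-1.34), Kmt2a (-1.16), Kmt2c (-1.30), Chd1 (-0.59), Ep300 (-0.39) and Crebbp (-0.13) did. With the most abundant transcript Jarid2 (-0.56), Pcgf1 (-0.077), Phc1 (-0.28), Kmt2a (-0.51), Kdm5c (-0.68), Kdm6a (-0.20), Arid1b (-0.32), Hdac9 (-0.33), Ep300 (-0.39) and Crebbp (-0.21) did. With CPM Pcgf1 (-0.057), Kmt2b (0.15), Kmt2d (2.69), Kdm6b (0.58) and Chd8 (1.81) did. With rescaling Cbx8 (0.27) and Chd8 (0.38) did, with edgeR Cbx8 (0.080) and Chd8 (0.054), and with protein-coding transcripts Ep300 (-0.31). With each library left out in turn, Cbx8 ran from -0.34 to 0.24, Kmt2a from -0.023 to 0.28, Kdm6a from -0.0048 to 0.30 and Chd8 from -0.11 to 0.045. None of these 4 was called in either direction with a library left out. Of the genes that changed side, Mtf2, Kmt2a, Kmt2c and Ep300 were called below 10 TPM in complete coding transcripts, Jarid2 and Kdm5c below with the most abundant transcript, and Kmt2d and Chd8 above with CPM. Calls were also gained or lost without a change of side. Cbx8 was called below in protein-coding, most abundant and complete transcripts, Phf19 below in the last 2 of these and with a minimum of 5 counts, and Pcgf2 below with the most abundant transcript and CPM. Kmt2a, Cbx2, Kdm5c, Kdm6a, Arid1b, Ep300 and Crebbp were called above with CPM and after rescaling, and 5 of these 7 also with edgeR (not Kmt2a or Kdm6a). The most abundant transcript lost the calls above of Ezh1, Cbx7, Kmt2c, Men1, Smarca2, Arid1a, Arid2 and Hdac4, complete transcripts those of Chd7 and Hdac4, and protein-coding transcripts that of Chd1. At 1 TPM the most abundant transcript lost Dpf3.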

Other observations

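Other genes of the same pathways also rested on partial or non-coding models. Complete coding transcripts held 1.74% of the TPM of the remodeller Chd9 (107 ± 10.5 TPM, SD, n = 4), 7.29% of that of Pbrm1, a PBAF subunit (89.2 ± 14.98 TPM), 7.67% of that of Kmt2e (94.5 ± 14.1 TPM) and 15.6% of that of the corepressor Ncor1 (158 ± 23.0 TPM). The level of these 4 genes, each among the 2 highest of its list, is therefore not one of full-length coding mRNA alone. Dpy30 (100.9 ± 13.6 TPM) in the same lists had 100% in complete coding transcripts. Sin3b, a corepressor scaffold, was at 97.9, 86.9, 88.6 and 42.6 TPM, lowest in library 4.

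Across the 58 genes, Spearman's rho between the GC content of the leading transcript and the deviation of a library from the gene's mean was -0.34, 0.25, 0.10 and 0.08 in libraries 1 to 4. Over 9430 genes of at least 10 TPM it was -0.13, 0.15, -0.01 and 0.01. These are values across genes, which share their libraries and are not independent.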
